A study of Arabidopsis thaliana with 6 samples.

Results

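Cytosolic ribosomal protein genes, which encode the proteins of the ribosome in the cytosol, were examined in chilled *Arabidopsis* seedlings of WT and fbs1-1. The set comprised 60 loci of 23 protein families, 38 of the large subunit and 22 of the small subunit, and each locus was taken at the probe set with the highest mean among those that the platform table tied to that locus alone. Of the 60 loci, 29 had such a probe set, 22 of the large and 7 of the small subunit, out of 13356 loci with a probe set of their own on the array. The other 31 were not measured here, 10 of them because they were found only in 5 probe sets shared by several genes and 21 because the platform table did not list them. RNA came from 12 day-old whole seedlings grown for 5 days at 24 °C and then for 7 days at 10 °C, and each genotype was represented by 3 of the 6 ATH1 arrays (Affymetrix). Both genotypes were chilled, and there was no unchilled group. FBS1 encodes an F-box protein, and fbs1-1 is a single line with a transposon in the first intron of the gene. The labels give No-0 as the background of both genotypes but name the WT arrays Nd0. The targeted gene had 0 probe sets of its own in the platform table, so that the genotype labels could not be checked on it.

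A ribosome holds 1 copy of most of its proteins, and these are needed in matched amounts. In *Arabidopsis* each family has several paralogous genes whose products are very alike, and their mRNAs are abundant in dividing and growing tissue. Translation of these mRNAs is controlled through the TOR kinase, which links ribosome production to growth, and mutants in single paralogs often have pointed or narrow first leaves. Family names below follow the usual names of the loci.

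The values were log2 intensities per probe set, normalized by the authors with RMA. Array medians over the 22746 tested probe sets lay between 2.62 and 2.72. The labels number the arrays 43 and 45 for replicate 1 of WT and fbs1-1 and 59 to 62 for the other 4, and the first pair of arrays stood apart on some control probe sets. Spike-in RNAs for labeling had a mean log2 intensity of 5.44 and 5.18 on the first pair and of 1.97 to 2.36 on the other 4. Hybridization controls averaged 7.93 on WT replicate 1, 7.59 on fbs1-1 replicate 1 and 7.03 to 7.21 on the others. The 3 prime minus 5 prime log2 difference of actin was 0.30 on fbs1-1 replicate 1 and -0.78 to -0.46 on the others. That of GAPDH was -0.45 on WT replicate 1 and -0.21 to 0.03 on the others, and that of ubiquitin was 0.21 to 0.51 over all arrays. The part of these controls in the results was not tested. Of 21 cell type markers only 2 had a probe set of their own and none of the 4 leaf markers did, so that the tissue label could not be checked. In RNA of whole seedlings, fewer cells of a type and less RNA per cell cannot be told apart.

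None of the 29 measured members differed between the genotypes beyond the spread of the arrays. By limma, at a Benjamini-Hochberg adjusted p under 0.05 over all probe sets, 0 of 29 members passed with WT above fbs1-1 and 0 with fbs1-1 above WT, against 1.57% and 1.68% of all tested probe sets. The lowest adjusted p of a member by limma was 0.361, and 0 members had an unadjusted p under 0.05, against 14.7% of all probe sets. Rank products, the test that the study used, called 0 members in each direction, against 1.18% of all probe sets as higher in WT and 1.14% as higher in fbs1-1. Its percentage of false prediction is given here as a proportion, with calls under 0.05, and the lowest of a member was 0.794. The 95% confidence interval of the difference covered 0 in each of the 29 members, and every bound lay between -0.63 and 0.53 on the log2 scale. Apart from 2 members that lay below 2 on all arrays, where the signal is too low to bound a change in mRNA, a 2-fold difference was outside the interval of all 27, and the intervals of 19 stayed within 0.5 log2 units of 0. The standard error of a member's difference had a median of 0.114, next to 0.117 over all probe sets.

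**Figure D1:**
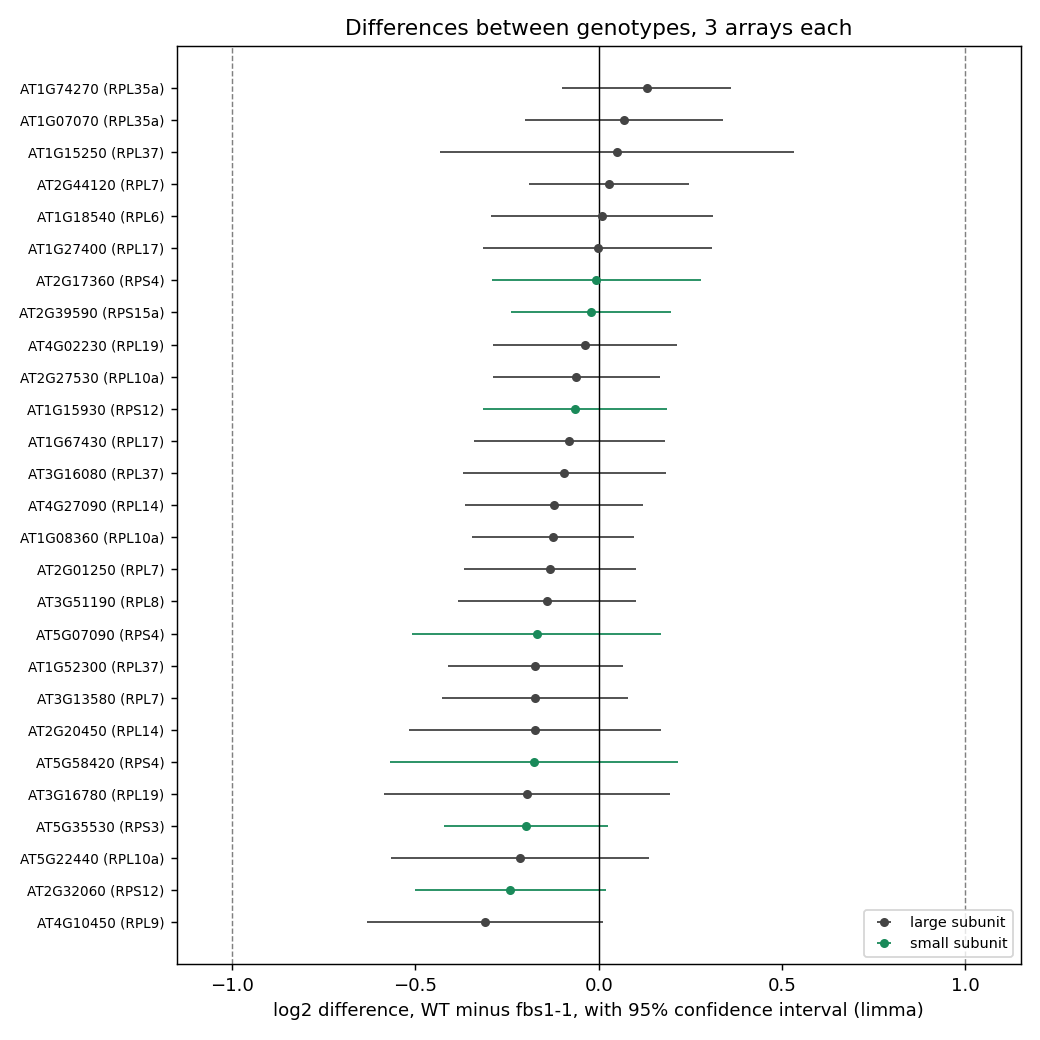
Log2 difference (WT minus fbs1-1) of 27 of the 29 cytosolic ribosomal protein genes, with its 95% confidence interval from limma, over 3 arrays of each genotype. Gray points are large subunit genes, green points are small subunit genes, and dashed lines mark a 2-fold difference. All intervals drawn cross 0, and 22 of 27 points lie on the side of fbs1-1.

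Point estimates leaned to one side. The mean was higher in fbs1-1 in 24 of 29 members (82.8%), against 52.0% of all probe sets, and the median difference was -0.125 against -0.00769 over all. All 3 values of fbs1-1 exceeded all 3 of WT in 3 members, of which 2 are described by name below, and the reverse was seen in 0 members. Among all probe sets these shares were 10.8% and 8.94%. The lean was smaller without 1 array. WT replicate 1 was the lowest of the 6 arrays in 27 of 29 members (93.1%), against 23.8% of all probe sets and 35.8% of the 2925 probe sets with a mean of at least 6. Without that array, which left fbs1-1 replicate 1 as the only array of the first pair, 16 of 29 members were higher in fbs1-1. The median difference was then -0.0193, against -0.0146 over all probe sets.

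The exceptions to this order were the paralogous RPL35a genes AT1G07070, lowest on fbs1-1 replicate 1, and AT1G74270, lowest on fbs1-1 replicate 3. Averaged over the 29 members, log2 values were 7.52 on WT replicate 1, 7.85 on WT replicate 2 and 7.79 on WT replicate 3. The corresponding means were 7.75, 7.82 and 7.91 in fbs1-1 replicates 1, 2 and 3. The group means were 7.72 ± 0.17 in WT and 7.83 ± 0.08 in fbs1-1 (SD, n = 3), so that the WT arrays spread over more than the distance between the genotypes. The highest array was fbs1-1 replicate 3 in 17 members and WT replicate 2 in 7. Within the first pair of arrays 27 members were higher in fbs1-1, with a median difference of -0.234. Within the other 4 arrays 20 members were, with a median of -0.0627, against -0.0194 over all probe sets. WT replicate 1 also had the highest hybridization controls, and the part of these in the result was not tested.

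**Figure D2:**
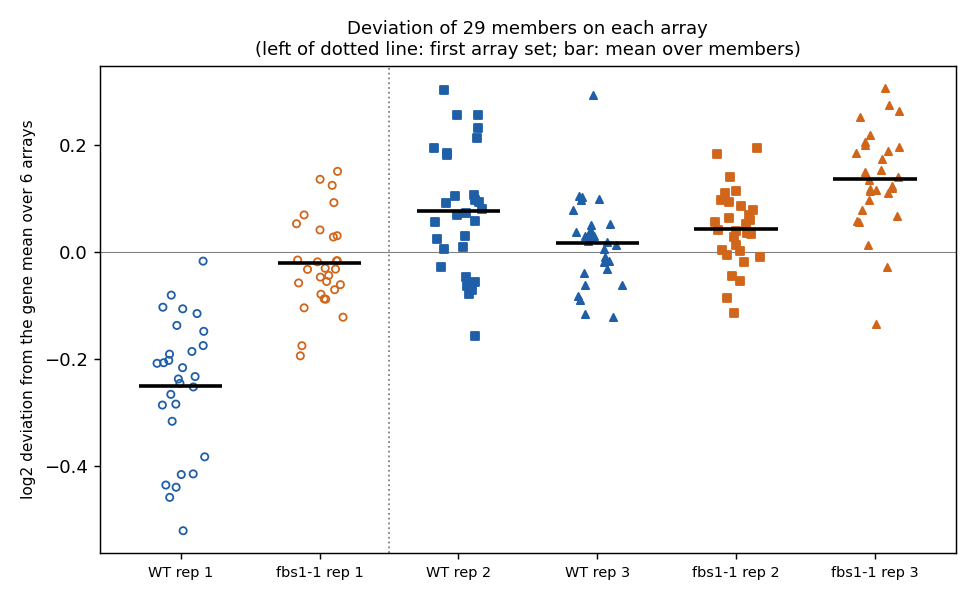
Deviation of each of 29 members from its own mean over 6 arrays, in log2 units, by array; black bars are means over members. Open circles are the first pair of arrays, blue is WT and orange is fbs1-1. WT replicate 1 has a mean deviation of -0.251, and those of the other 5 arrays lie between -0.0215 and 0.136.

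The members moved together from array to array. After the genotype means were taken out, the mean correlation between 2 members over the 6 arrays was 0.703, against 0.00308 between all probe sets. Without WT replicate 1 it was 0.394 against 0.00441. On each array 40.2% to 40.8% of all probe sets lay below 2, so that their correlation is not one of genes as bright as most members. No correlation among other genes of that brightness is given here, and the contrast cannot be read as particular to the members. The median was 0.797 between paralogs and 0.788 between members of different families, so that these medians were nearly the same for paralogs and for other pairs. These values are descriptions, since all genes share the same few arrays and a shift of 1 array enters all of them. The range over the 6 arrays had a median of 0.379 log2 units in the members and of 0.417 over all probe sets.

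**Figure D3:**
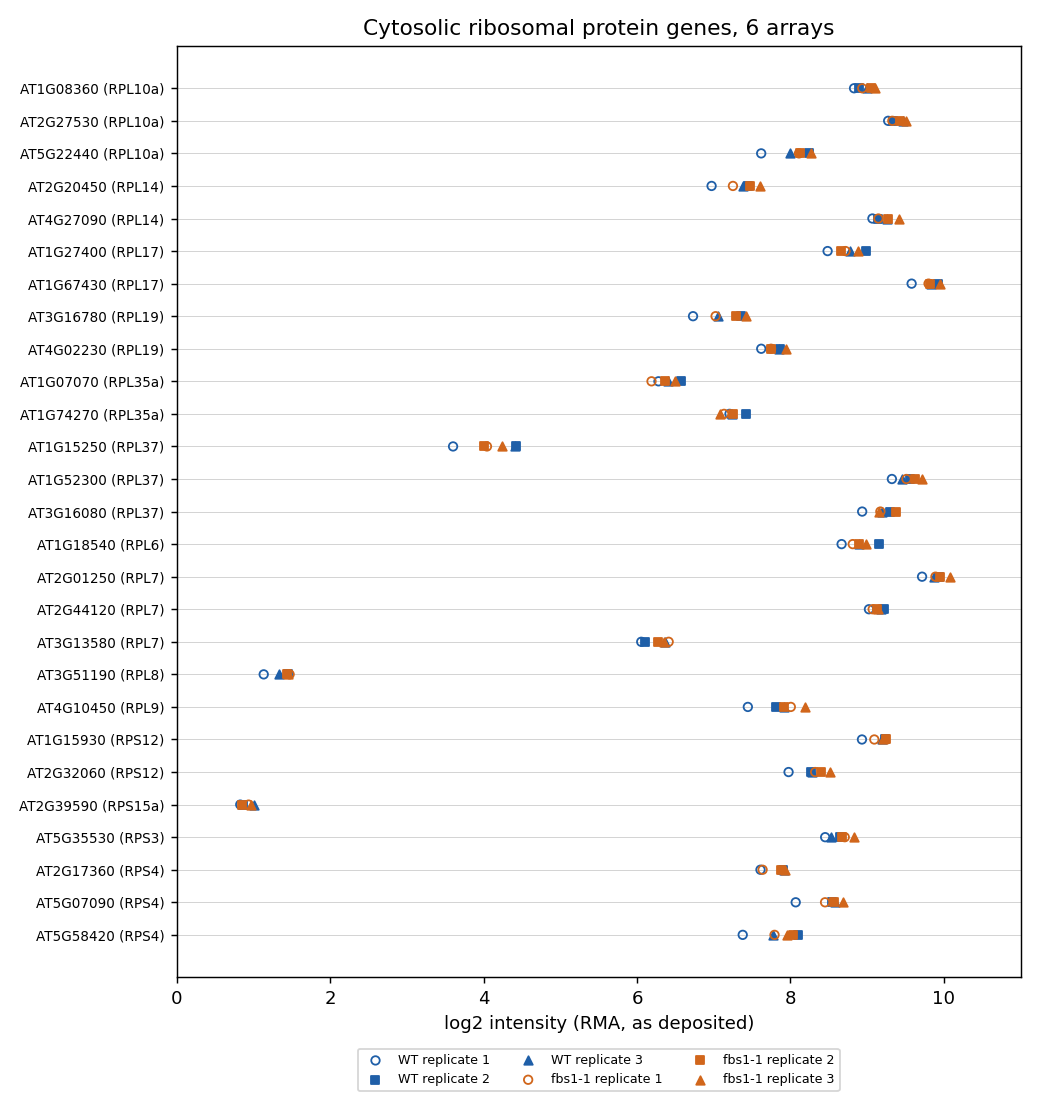
Deposited log2 intensity of 27 of the 29 members on each array, with 1 row per gene and its family in brackets. Filled and open symbols show replicates, with blue for WT and orange for fbs1-1. In most rows the open blue circle of WT replicate 1 is at the left, and AT3G51190 and AT2G39590 lie below 2 on all 6 arrays.

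Large subunit genes were measured in 11 families. In 17 of 22 the mean was higher in fbs1-1, and the median difference was -0.123. The member with the largest difference was AT4G10450, a gene of RPL9, whose bacterial counterpart lies near the site where elongation factors bind. AT4G10450 had log2 values of 7.44, 7.82 and 7.92 in WT and of 8.00, 7.91 and 8.19 in fbs1-1. The groups overlapped by 1 array, as WT replicate 3 lay just above fbs1-1 replicate 2. The difference was -0.31 (SE 0.14, limma adjusted p = 0.361), a 1.24-fold higher level in fbs1-1. Its paralogs AT1G33120 and AT1G33140, the latter known as PIGGYBACK2 for its role in leaf polarity, were not measured.

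RPL10a forms the mobile stalk of the large subunit that guides spent tRNA out of the ribosome, as known from yeast. All 3 of its genes were measured. PIGGYBACK1 (AT2G27530), named for leaf polarity defects of its mutant in *Arabidopsis*, was at 9.27, 9.33 and 9.47 in WT and at 9.33, 9.42 and 9.51 in fbs1-1, so that each group covered most of the range of the other. Its difference was -0.06 (SE 0.10, limma adjusted p = 0.861). AT5G22440 was at 7.62, 8.24 and 8.00 in WT and at 8.11, 8.12 and 8.26 in fbs1-1. Here WT replicate 1 was 0.377 below the next WT array, and the difference of -0.21 became -0.05 without it. AT1G08360 differed by -0.13 (SE 0.10).

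RPL35a was the only family of more than 1 measured gene in which each member had a higher mean in WT. RPL35A is mutated in some patients with Diamond-Blackfan anemia, a failure of red cell production in humans. AT1G74270 was at 7.21, 7.42 and 7.24 in WT and at 7.13, 7.25 and 7.09 in fbs1-1, a difference of 0.13 (SE 0.10, limma adjusted p = 0.653). WT replicate 2 was the highest array, and fbs1-1 replicate 2 lay above the other WT arrays. AT1G07070 was at 6.28, 6.57 and 6.40 in WT and at 6.19, 6.36 and 6.49 in fbs1-1, and the groups were interleaved, with a difference of 0.07 (SE 0.12).

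RPL7 and RPL37 had members on both sides of 0. In RPL7, AT2G44120 was at 9.02, 9.23 and 9.18 in WT and at 9.07, 9.13 and 9.14 in fbs1-1, with a difference of 0.03 (SE 0.10). AT2G01250 and AT3G13580 of the same family differed by -0.13 and -0.17. In RPL37, AT1G15250 was at 3.60, 4.43 and 4.41 in WT and at 4.04, 4.01 and 4.24 in fbs1-1, and WT held both the lowest and the highest values. Its range of 0.825 was the widest of the members, and its difference was 0.05 (SE 0.21). AT1G52300 and AT3G16080 of RPL37 differed by -0.17 and -0.09. AT1G18540, the only measured gene of RPL6, was at 8.67, 9.16 and 8.89 in WT and at 8.81, 8.89 and 8.98 in fbs1-1, a difference of 0.01 (SE 0.13).

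The large subunit members named in this paragraph differed by -0.20 or less in size. RPL19, which bridges both subunits in yeast, gave -0.20 for AT3G16780 and -0.04 for AT4G02230. RPL17 lines the tunnel through which the new protein leaves the yeast ribosome, and its genes AT1G27400 and AT1G67430 differed by -0.00 and -0.08. RPL14 gave -0.17 for AT2G20450 and -0.12 for AT4G27090. RPL8 lies next to the center where peptide bonds form, and its gene AT3G51190 was at 1.13 to 1.45 in WT and at 1.43 to 1.47 in fbs1-1. At such intensities, below 2 on all arrays, background could not be told from signal, and the other RPL8 genes AT2G18020 and AT4G36130 were not measured.

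Small subunit genes were measured in 4 families, and all 7 means were higher in fbs1-1, with differences from -0.24 to -0.01 and a median of -0.169. AT2G32060 of RPS12, a protein at the beak of the small subunit in yeast, was at 7.98, 8.26 and 8.27 in WT and at 8.32, 8.40 and 8.51 in fbs1-1. The groups did not overlap, with a gap of 0.05 between fbs1-1 replicate 1 and the highest WT array, and the difference was -0.24 (SE 0.11, limma adjusted p = 0.388). AT5G35530 of RPS3, which sits where mRNA enters the yeast ribosome, was at 8.45, 8.64 and 8.52 in WT and at 8.71, 8.68 and 8.83 in fbs1-1. These groups did not overlap either, and the difference was -0.20 (SE 0.10, limma adjusted p = 0.412). Without WT replicate 1 both genes kept their direction, at -0.14 for AT2G32060 and -0.15 for AT5G35530.

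All 3 measured genes of RPS4 had their lowest value on WT replicate 1. AT5G58420 was at 7.38, 8.09 and 7.77 in WT and at 7.79, 8.03 and 7.95 in fbs1-1, so that WT held the highest and the lowest array. Its difference was -0.18 (SE 0.17, limma adjusted p = 0.740) and 0.01 without WT replicate 1. AT5G07090 and AT2G17360 differed by -0.17 and -0.01. The second RPS12 gene, AT1G15930, differed by -0.06. AT2G39590 of RPS15a lay between 0.83 and 1.00 on all arrays, with a range of 0.177, the narrowest of the members. No gene of RPS18 was measured, among them AT1G22780, which is known as POINTED FIRST LEAF for its mutant in *Arabidopsis*, and none of RPS15, RPSa, RPL3, RPL10 or RPL23 was.

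Whether paralogs changed relative to each other was asked with the log2 ratio of 2 genes on the same array, in which a shift of the whole array cancels. The 29 members formed 18 pairs of paralogs in 10 families, and pairs of a family share genes. The ratio differed between the genotypes by 0.00737 to 0.223 log2 units in size, with a median of 0.116, while 388 pairs from different families had a median of 0.109. The WT and fbs1-1 ratios did not overlap in 4 of 18 pairs (22.2%) and in 75 of 388 pairs from different families (19.3%). With 3 arrays a genotype, the exact two-sided permutation test cannot give a p under 0.1, so that no single pair could pass.

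**Figure D4:**
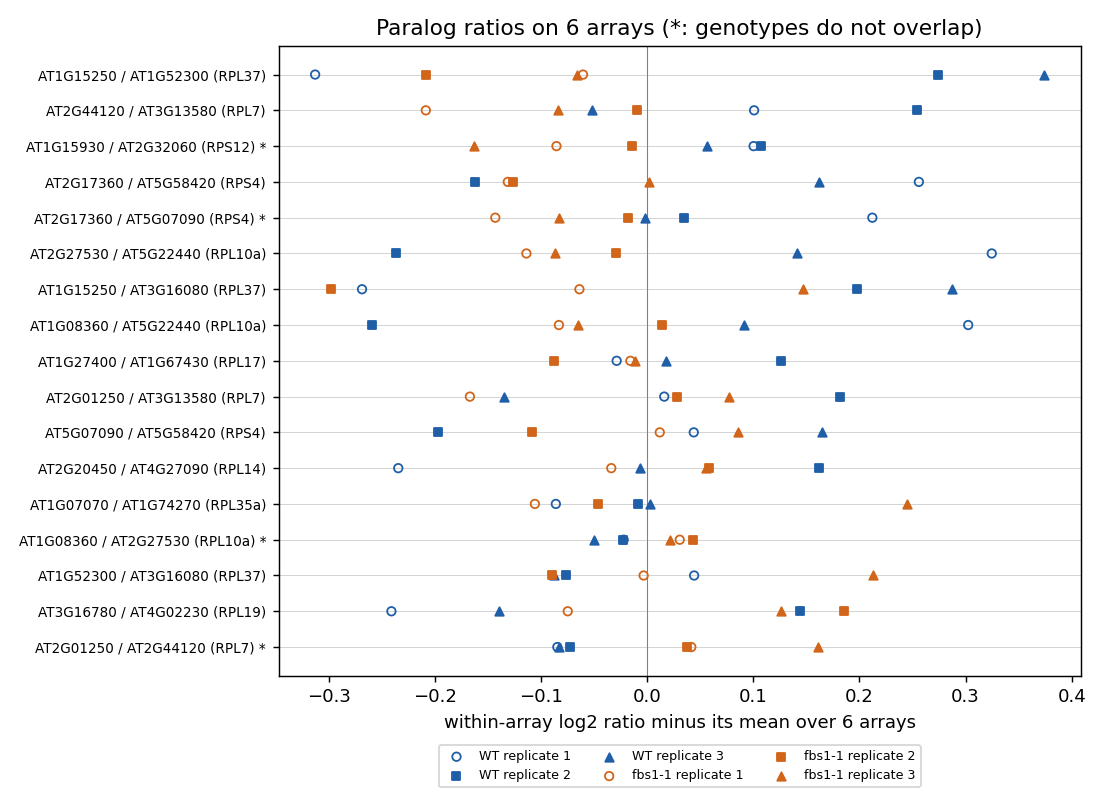
Within-array log2 ratio of 17 of the 18 pairs of paralogs, shown as its deviation from the mean over 6 arrays, with 1 point per array. Blue is WT, orange is fbs1-1, and an asterisk marks the 4 pairs in which the genotypes do not overlap.

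The RPS12 pair AT1G15930 over AT2G32060 had log2 ratios of 0.96, 0.96 and 0.91 in WT and of 0.77, 0.84 and 0.69 in fbs1-1. The change of 0.18 was toward AT2G32060 in fbs1-1, with all 3 fbs1-1 ratios below those of WT (exact permutation p = 0.1). The RPL7 pair AT2G01250 over AT2G44120 had ratios of 0.69, 0.70 and 0.69 in WT and of 0.82, 0.81 and 0.94 in fbs1-1, a difference of -0.16 (exact permutation p = 0.1). The WT arrays were within 0.01 of each other in this ratio, although WT replicate 1 was the lowest array for both genes. The RPS4 pair AT2G17360 over AT5G07090 had ratios of -0.46, -0.64 and -0.67 in WT and of -0.81, -0.69 and -0.76 in fbs1-1, a difference of 0.16 (exact permutation p = 0.1). The smallest change without overlap was in RPL10a, where AT1G08360 over AT2G27530 moved by -0.06 and the arrays of a genotype spread little.

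Among the pairs with the largest change in ratio, 3 overlapped between the genotypes. AT1G15250 over AT1G52300 in RPL37 had the largest difference, 0.22 (exact permutation p = 0.4), and AT1G15250 was the dim gene of the pair. AT2G44120 over AT3G13580 in RPL7 differed by 0.20 (exact permutation p = 0.2) and AT2G17360 over AT5G58420 in RPS4 by 0.17 (exact permutation p = 0.4). Leaving out WT replicate 1 raised the number of pairs without overlap from 4 to 7, and leaving out WT replicate 2 raised it to 8. Fewer arrays were then left to overlap, and no share of pairs from different families is given beside these counts.

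Outside these 60 loci, 85 of 135 other cytosolic ribosomal protein genes had a probe set of their own, and most leaned to fbs1-1 too. Their differences reached further toward WT than those of the members, with a 95th percentile of 0.332 against 0.0613. Their median difference was -0.088, 62 of 85 (72.9%) had a higher mean in fbs1-1, and WT replicate 1 was the lowest array in 61 (71.8%). By limma 1 of 85 passed with a higher level in WT, and 0 passed in the other direction. Among those that did not pass were genes without overlap in both directions. Of all probe sets, 8.94% had WT above fbs1-1 without overlap and 10.8% the reverse, so that lack of overlap is not particular to this list. Examples picked from the list were AT3G04230 at 0.53 (limma adjusted p = 0.0586) and AT2G40010 at -0.57 (limma adjusted p = 0.124). The gene that passed belonged to RPL13a, a family none of whose genes was among the 60 loci. AT5G48760 was at 7.11, 7.32 and 7.22 in WT and at 6.86, 6.56 and 6.54 in fbs1-1, a difference of 0.56 (SE 0.12, limma adjusted p = 0.0416), and this call was lost when WT replicate 2 or 3 or fbs1-1 replicate 2 or 3 was left out, with an adjusted p of up to 0.179. Rank products did not call it (percentage of false prediction 0.145), and neither did limma with the replicate block (adjusted p = 0.0546).

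Its paralog AT4G13170 had the largest difference of all the cytosolic ribosomal protein genes measured. AT4G13170 was at 7.41, 7.82 and 7.55 in WT and at 6.56, 3.40 and 3.54 in fbs1-1. The fbs1-1 arrays themselves fell apart, with replicate 1 much nearer to WT than to the other fbs1-1 arrays, and the difference of 3.09 (SE 0.72), an 8.52-fold higher level in WT, missed the threshold by limma (adjusted p = 0.0608). It was called by rank products (percentage of false prediction 0), by limma when the arrays were blocked by set (adjusted p = 0.0202) and by limma on arrays 59 to 62 only (adjusted p = 6.5e-05). Without fbs1-1 replicate 1 the difference was 4.12 and the adjusted p by limma was 2.4e-05, while leaving out any other array gave 0.108 to 0.227. The third measured RPL13a gene, AT3G07110, was at 9.07, 9.25 and 9.23 in WT and at 9.22, 9.46 and 9.55 in fbs1-1, a difference of -0.23 (SE 0.11, limma adjusted p = 0.425). Like AT4G13170, AT5G48760 was lower in fbs1-1 with replicate 1 nearest to WT. Whether probe sets of paralogs share signal was not tested, here or in the pairs above.

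**Figure D5:**
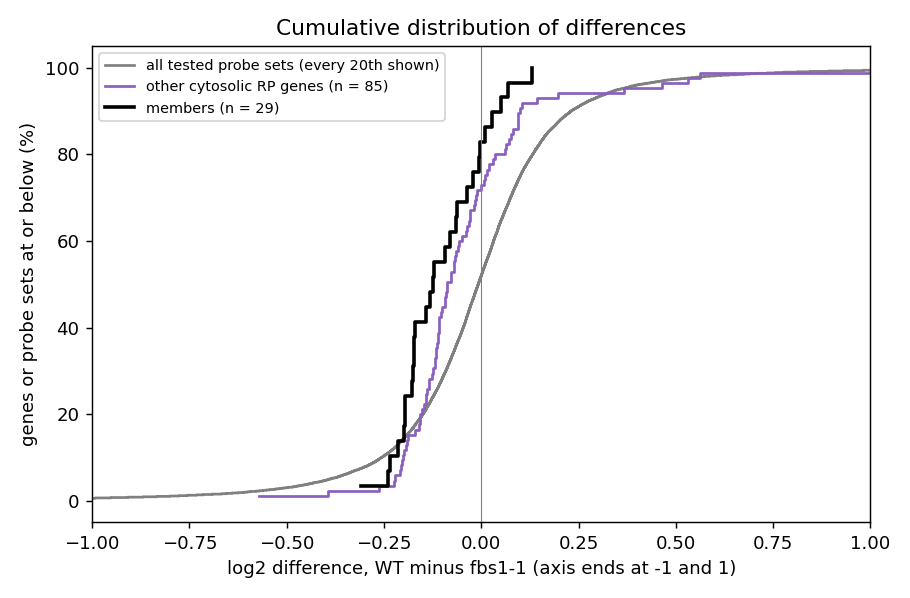
Cumulative share of genes or probe sets by log2 difference (WT minus fbs1-1), for the 29 members, 85 other cytosolic ribosomal protein genes and all tested probe sets. Values beyond the axis are not drawn, among them AT4G13170 at 3.09. Both ribosomal curves lie left of the curve of all probe sets over most of the range, with medians of -0.125 and -0.088 against -0.00769.

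Genes of related functions were thinly covered. Of 31 plastid ribosomal protein genes 7 were measured and 0 were called, with a median difference of -0.0156, and WT replicate 1 was the lowest array in 4 of 7. Of 21 translation factor genes 3 were measured, with 0 called and a median of -0.0737. Of 28 genes for ribosome assembly and TOR signaling 4 were measured and 0 were called, with a median of -0.242, and WT replicate 1 was lowest in all 4. Of these, AT3G15460, an assembly factor gene, had the largest difference, -0.39 (limma adjusted p = 0.161). AUR1 (AT4G32830), an aurora kinase gene of dividing cells and the only division marker measured, was at 3.05, 3.60 and 3.15 in WT and at 3.69, 3.72 and 4.08 in fbs1-1. The groups did not overlap, and its difference of -0.56 did not pass (limma adjusted p = 0.135).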

How the data were processed

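The authors normalized the ATH1 arrays with RMA, a procedure of background correction, normalization across arrays and summary per probe set. The deposited values are log2 intensities, and the version used is not given in the sources used here. Precision is limited by the number of arrays. Groups and replicate numbers came from the labels. After 64 control probe sets were left out of 22810, limma 3.58.1 in R 4.3.3 was fitted to 22746 probe sets with genotype as the only term. Of these, 13513 had 1 gene in the platform table, 503 had several and 8730 were not listed there. Nothing in the labels says that replicates came from separate plantings, so that p-values measure the spread between these samples. Rank products used 9 pairs of arrays and 100 permutations in an own implementation, as the package of the methods was not at hand. Python 3.11.15 with numpy 2.4.6, pandas 2.3.3, scipy 1.17.1 and matplotlib 3.10.9 was used.

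On simulated arrays of 22746 probe sets, 3 of each genotype, 95.0% of 100 genes with a 2-fold change were recovered by limma and 98.0% by rank products, which called 11 and 19 unchanged genes. The simulated noise was independent between probe sets, without shifts of whole arrays or array sets, so that these shares do not cover such shifts in the data.

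The rule for values on every array took members past limma, the 6 with the largest differences in each direction (only 5 were higher in WT) and those with a known *Arabidopsis* mutant. Of the 13 members so chosen, 11 are given by name and 2 fall in a family not reported by name. Ratios were named for the 5 pairs with the largest change, and other genes and pairs were named after their values were seen. The members and gene lists were chosen with earlier results of these data known. Alternatives covered scaling, a filter below the 40th percentile of mean expression, blocks, weights, a variance trend and leaving out each array. Some families are not reported by name here, and the plots by gene leave out 2 measured genes and 1 pair, which stay in all counts. The locus names of 60 members were used as given, and no sequences were used here.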

Additional observations from a re-analysis of the deposited data

How the results depend on the processing

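In none of 15 other limma settings was a member called, and the lowest adjusted p of a member by limma over them was 0.195, when array set was a block. The count of members with an unadjusted p under 0.05 was 0 to 4. Of the replicate numbers only 1, which is also the first pair of arrays, paired the samples. After the genotype means were taken out, WT replicate 1 correlated at 0.282 with fbs1-1 replicate 1. With fbs1-1 replicates 2 and 3 it was at -0.16 and -0.178. For replicates 2 and 3, arrays of the same number gave 0.0881 and 0.144, and arrays of unlike number 0.106 and 0.135. With the replicate block, 487 probe sets were higher in WT and 541 in fbs1-1, against 358 and 382 without it, and 0 members were called in each direction, with a median difference of -0.125. Outside the members, the replicate block ended the call of AT5G48760, at an adjusted p of 0.0546 by limma, and called AT4G13170, at 0.0332. The array set as a block gave 569 and 650, and array weights 570 and 625. Leaving out single arrays gave 142 to 338 and 140 to 319. The median difference of the members was -0.157 to -0.0193 when 1 array was left out, and -0.0978 with arrays centred on their medians, where 21 members were higher in fbs1-1. With arrays shifted to the mean of the members, an alternative chosen after seeing the data, the median was -0.0198 and that of all probe sets 0.0977, 16 members were higher in fbs1-1 and the lowest adjusted p by limma was 0.647; 428 probe sets were then higher in WT and 235 in fbs1-1.

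The number of paralog pairs without overlap was 7 in the second array set alone and 4 to 8 when 1 array was left out. With fewer arrays the ratios of any pair of genes overlap less easily. The share among pairs from different families is not given at these settings, so that these counts are no result about paralogs. Among 11 members given by name with all values, 5 changed sign under at least 1 alternative other than the shift to the mean of the members. With that shift AT2G27530 went from -0.06 to 0.04. AT1G18540 was at -0.0089 with quantile normalization. When 1 array was left out, the difference lay between -0.12 and 0.13 for AT1G18540, between -0.014 and 0.088 for AT2G44120, between -0.089 and 0.32 for AT1G15250, between -0.011 and 0.14 for AT1G07070 and between -0.35 and 0.0084 for AT5G58420. Without WT replicate 3, AT1G15250 was at -0.08, and without fbs1-1 replicate 1, AT1G18540 was at -0.03. The mean over several probe sets of a locus gave no other value, as each member had 1. Low signal limits what can be said of AT3G51190 and AT2G39590, and 31 of 60 loci were not measured, so that the values describe 29 of the set.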

Other observations

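AT4G13170, the RPL13a gene with the largest difference, had neighbors that were also lower on the fbs1-1 arrays, and least so on replicate 1. AT4G13180, 2 protein-coding genes away in the gene order of assembly TAIR10.1, was at 6.81, 5.89 and 6.52 in WT and at 4.93, 1.78 and 1.78 in fbs1-1. AT4G13200, 5 genes away on the same side, was at 5.71, 5.92 and 5.56 in WT and at 4.61, 1.09 and 1.75 in fbs1-1. AT4G13150, the next gene on the other side, was at 5.01, 4.73 and 4.47 in WT and at 2.90, 1.71 and 2.16 in fbs1-1. In each of these 4 genes fbs1-1 replicate 1 lay between WT and the other fbs1-1 arrays. AT4G13160, the next gene on the side of AT4G13180, was at 1.33 to 1.52 in WT and at 0.68 to 1.28 in fbs1-1, below 2 on all arrays. AT4G13190, between AT4G13180 and AT4G13200, was at 1.01 to 1.20 on all arrays. AT4G13195, 4 genes away on the side of AT4G13180, was at 1.24 to 1.91 in WT and at 1.05 to 1.27 in fbs1-1. On the other side, AT4G13130, 2 genes away, was at 2.18, 1.77 and 2.26 in WT and at 1.65, 1.61 and 1.61 in fbs1-1. AT4G13100, 4 genes away on that other side, was at 3.34 to 3.87 in WT and at 3.33 to 3.88 in fbs1-1. This stretch was looked at after the values of AT4G13170 had been seen, and the cause was not tested.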
